A study of Pyrus pyrifolia with 2 samples.

Results

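Annotated genes whose transcript has 20 or more exons were examined in RNA-seq data from wound tissue. The samples came from "Shuijing", a cultivar of sand pear (Pyrus pyrifolia). Whether the annotated gene models were built for this species was not given in the sources used here. All annotated transcripts (prefix Pbr in the deposited transcript tables) with an exon number of 20 or more were taken, which gave 821 of 42341. Each wound had received 30 μL of sterilized water or Wickerhamomyces anomalus, a yeast used against postharvest decay, and was kept 3 days at 28 °C and 95% relative humidity. The samples carry no genotype other than the cultivar, and the labels give no organ, age, number of individuals or pooling. The tissue label could not be checked against marker genes, because no table linking identifiers to gene names was at hand. Each treatment has 1 library. Ratios therefore compare 2 libraries rather than the conditions, and no p-values are given.

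Introns are cut from the primary transcript by the spliceosome, so a transcript with many exons depends on many correct splicing events. In plants, known genes of this kind include most callose synthases, which lay down callose at wounds and cell plates, the class XI myosins that drive organelle movement, and large chromatin-remodelling ATPases. Which of the 821 belong to these families is not stated here, because no product names were at hand.

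Depth, estimated from coverage, was 19367039 read pairs after water and 16753518 after yeast; the libraries are named by these treatments, and of paired values the first is after water. Of these, 1.49% and 1.54% were given to the 821 annotated transcripts. At their median coding length, 3 read pairs correspond to 0.0466 FPKM (fragments scaled to transcript length and library size) after water and 0.0539 FPKM after yeast. Fold intervals given below cover counting error of read pairs only, and intervals of shares are binomial over transcripts or loci. Neither kind covers variation between replicates. Without molecular identifiers, read pairs are no independent molecules, so the fold intervals may be too narrow.

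The many-exon transcripts had short exons and introns of ordinary length. Exon number had a median of 23, a 90th percentile of 34 and a maximum of 65. Of the 821, 517 had 20 to 24 exons, 149 had 25 to 29, 115 had 30 to 39 and 40 had 40 or more. The median coding length was 3321 bases, with a range of 1374 to 16572, and the median span on the genome was 9922 bases. The mean exon of a transcript had a median length of 136 bases, against 155 bases for annotated transcripts with 6 to 19 exons and 254 bases for those with 2 to 5. The mean intron had a median length of 262 bases, against 269 and 328 bases. Introns made up a median of 64.7% of the span, compared with 60.9% at 6 to 19 exons. Coding length grew with exon number, from a median of 3000 bases at 20 to 24 exons to 5960 at 40 or more, while the mean exon stayed between medians of 132 and 137 bases. The mean exon was much the same below 20 exons, with medians of 135 bases at 15 to 19 exons and 140 at 10 to 14.

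Read as single annotated transcripts, most many-exon genes were below the level called expressed. Expressed here means averaging 1 FPKM or more across the libraries, which held for 233 of 821 (28.4%, exact binomial 95% interval over transcripts 25.3 to 31.6%). The share was 40.1% at 6 to 19 exons, 31.3% at 2 to 5 exons, 26.0% for single-exon transcripts and 32.2% for all annotated transcripts. A value of 0 in both libraries was listed for 145 (17.7%) of the many-exon transcripts, the lowest share of the 4 exon classes, against 38.5% of all. The expressed share at 2 to 5 exons lay inside the interval of the many-exon transcripts and that at 6 to 19 exons above it.

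Summed over all transcripts of the locus, the same genes were the most often expressed class. Besides annotated transcripts, the tables hold 15578 assembled ones (prefix MSTRG), and 529 of the 821 (64.4%) shared their locus with at least 1 of these, compared with 39.9% at 6 to 19 exons and 21.3% of all annotated transcripts. Adding the FPKM of every transcript at the locus brought 666 of 821 (81.1%, interval 78.3 to 83.7%) to a mean of at least 1, against 69.9% at 6 to 19 exons, 43.4% at 2 to 5 exons, 28.0% for single exons and 47.1% of all. The sum put 433 many-exon genes over the threshold that their annotated transcript alone did not reach. All 529 that shared a locus passed, as did 99.5% of such genes at 6 to 19 exons. Assembled transcripts are built from reads, so a pass at such loci was close to fixed in advance. Of the 292 alone at their locus, 137 passed (46.9%), a share below the 50.2% of 7042 at 6 to 19 exons. The higher overall share thus went with more loci of several transcripts. Of the 155 that passed on neither scale, 47 were at 0 in both libraries, and all 155 were alone at their locus. The sum is over 819 loci, since 2 loci hold 2 of these genes each, and for 21 genes it takes in another annotated gene.

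**Figure D1:**
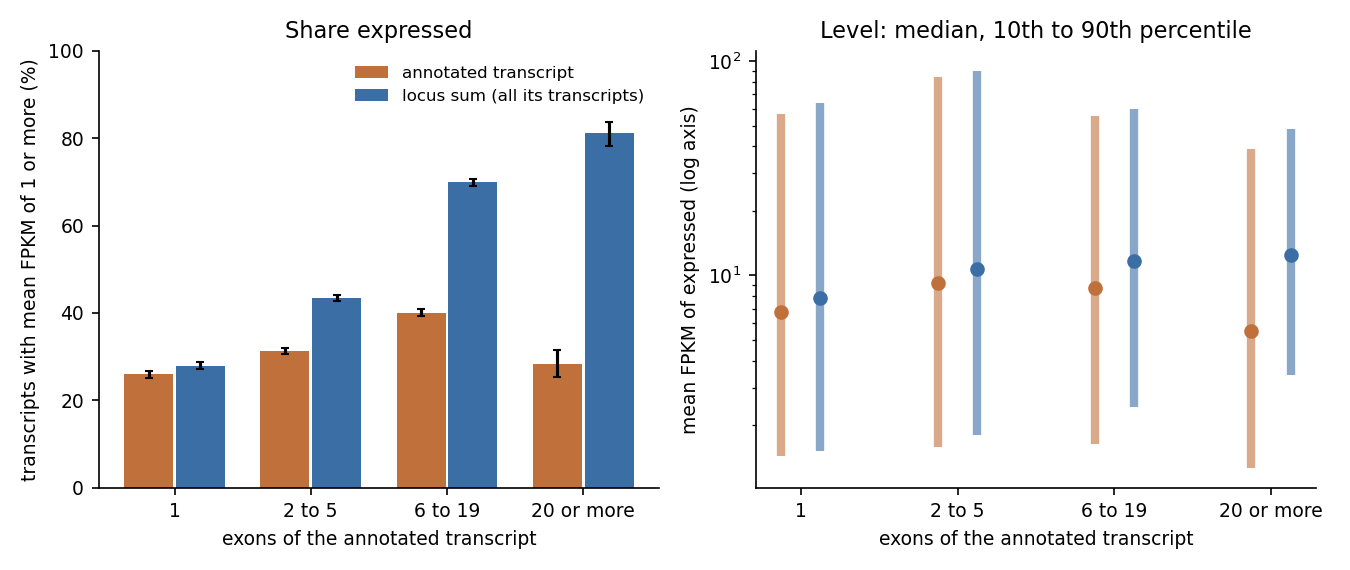
Left, percent of annotated transcripts with a mean FPKM of at least 1 in 4 exon classes, for the annotated transcript and for the sum over its locus, with exact binomial 95% intervals as bars. Right, median (point) and 10th to 90th percentile (bar) of mean FPKM among expressed transcripts on a log axis; the locus sum of the class with 20 or more exons has the highest expressed share, 81.1%, and the shortest bar, 3.45 to 48.1 FPKM.

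Where a locus held several transcripts, the annotated many-exon transcript received little of the signal. Its share of the locus FPKM had a median of 0.511%, was under 1% at 311 of the 529 loci (58.8%) and reached 50% or more at 20. At 508 of these loci the gene was the only annotated one. There the leading assembled transcript, the one with the highest mean FPKM, stood above the annotated transcript in 485 cases (95.5%), against 91.8% at 6 to 19 exons.

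The leading assembled transcripts were mostly long, many-exon forms as well. Of the 508, 366 (72.0%) had 20 or more exons, and 127 had exactly the exon number of the annotated transcript. A further 124 had 1 or 2 exons more, 61 had 1 or 2 fewer, 37 had 3 or more in excess and 65 lacked 3 to 9. The other 94 (18.5%) had at least 10 exons fewer, compared with 1.38% at 6 to 19 exons, where most transcripts do not have 10 exons to lose. The leading form covered the whole annotated span at 304 loci (59.8%, against 75.0% at 6 to 19 exons), and it was longer than the annotated coding length at 332, with a median length ratio of 1.09. All annotated lengths are multiples of 3, as of coding sequence without untranslated regions. How reads were divided among transcripts of a locus was not tested.

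The genes with the most exons show the contrast. The annotated transcript of 65 exons, on chromosome 6 (22648769 to 22687130, strand given as plus or minus, here minus, with 13053 coding bases), was listed at 0 after water and at 0.00493 FPKM after yeast, while its locus stood at 7.41 and 7.37 FPKM. A gene of 62 exons on chromosome 11 (15969296 to 16003343, plus) was at 0.224 and 0.0707 FPKM as annotated and at 6.998 and 6.04 FPKM as a locus. The 58-exon gene on chromosome 12 (1457565 to 1477878, plus) read 0.379 and 0.348 FPKM, and its locus 18.5 and 19.7 FPKM. All 3 annotated forms were below the expression threshold in both libraries, and all 3 loci above it. On chromosome 7, a 57-exon gene (5803750 to 5828861, minus) was at 0.102 and 0.157 FPKM as annotated and at 19.6 and 21.5 FPKM as a locus. A 55-exon gene on chromosome 11 (16093149 to 16126918, minus) was at 0.0432 and 0.0118 FPKM and its locus at 3.25 and 3.06 FPKM. A second gene of 55 exons, on chromosome 7 (14841237 to 14856666, minus), was at 0.0177 and 0.0260 FPKM and its locus at 18.4 and 19.4 FPKM. At each of these 6 loci the libraries differed by less than 0.2 on the log2 scale used below.

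The longest and the shortest of these genes had loci at low as well as at higher levels. The longest coding sequence, 16572 bases in 31 exons on chromosome 17 (23377154 to 23397787, plus), was listed at 0 in both libraries as annotated, and its locus was at 4.41 FPKM after water and 6.56 FPKM after yeast. Another gene of that chromosome, with 15798 coding bases in 32 exons (24304808 to 24324919, plus), was at 0.257 and 0.210 FPKM, with a locus at 29.3 and 30.1. The third longest is the 62-exon gene above. At the short end, 1374 coding bases in 20 exons on chromosome 3 (356654 to 365227, minus) were listed at 0 in both libraries, with a locus at 18.7 and 18.9 FPKM. A 21-exon gene of 1407 bases on chromosome 11 (2188913 to 2196636, minus) was also listed at 0 in each library, and its locus was at 1.64 and 2.36 FPKM. The third shortest is the most abundant many-exon transcript, described below. The widest span, 62153 bases for 20 exons and 1773 coding bases on an unplaced scaffold, went with 1.01 and 1.64 FPKM as annotated and 46.2 and 47.3 FPKM as a locus. Spans of 56679 bases (chromosome 17, 22 exons) and 52292 bases (another scaffold, 20 exons) held annotated transcripts under 0.1 FPKM in both libraries, with loci at 101 and 105 FPKM and at 5.79 and 5.71 FPKM.

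Levels were narrow in range once taken by locus, though not for genes alone at their locus. Among the 666 expressed loci the median was 12.3 FPKM after water and 12.7 FPKM after yeast, and mean FPKM ran from 3.45 at the 10th to 48.1 at the 90th percentile, a ratio of 13.95. The same ratio was 24.6 at 6 to 19 exons, 50.3 at 2 to 5, 42.0 for single exons and 35.4 over all annotated transcripts. Both ends contributed, since the 10th percentile was higher (3.45 against 2.43 FPKM at 6 to 19 exons) and the 90th lower (48.1 against 59.9). On the annotated transcript alone the range was much wider, at 30.8 times among the 233 expressed, against 33.7 at 6 to 19 exons. For genes alone at their locus the ratio was 31.4, against 33.6 at 6 to 19 exons. By locus it was 20.3 at 15 to 19 exons, 18.9 at exactly 19 and 21.2 at exactly 20, so it did not narrow at the threshold itself. Within the class, the locus ratio was 17.1 at 20 to 24 exons, 8.29 at 25 to 29, 13.3 at 30 to 39 and 9.59 at 40 or more. Medians of the 4 bands lay between 11.6 and 12.7 FPKM, so the level itself changed little with exon number.

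A locus mean of 100 FPKM or more was reached by 19 many-exon genes (2.31%), against 3.57% at 6 to 19 exons and 3.16% of all annotated transcripts. The highest was a gene of 21 exons and 1416 coding bases on chromosome 9 (729135 to 734985, plus), at 730 FPKM after water and 794 FPKM after yeast, 1.09-fold higher (95% counting interval 1.07 to 1.11). On the same chromosome, a 20-exon gene (16419385 to 16425598, plus) was at 532 FPKM in both libraries. A 20-exon gene on an unplaced scaffold read 267 and 275 FPKM. These 3 were each alone at their locus, and none differed by 1.1-fold. On chromosome 3, a 20-exon gene (13362598 to 13369603, minus) was at 224 FPKM after water and 197 after yeast, 1.14-fold lower (1.11 to 1.16). Chromosome 8 held the next, with 29 exons (10660750 to 10668448, plus), at 194 and 216 FPKM, 1.11-fold higher (1.08 to 1.14). Other loci near the top were carried by assembled forms, such as a 20-exon gene on chromosome 10 (867551 to 873221, plus) at 0.987 and 1.54 FPKM as annotated and at 389 and 494 FPKM as a locus.

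**Figure D2:**
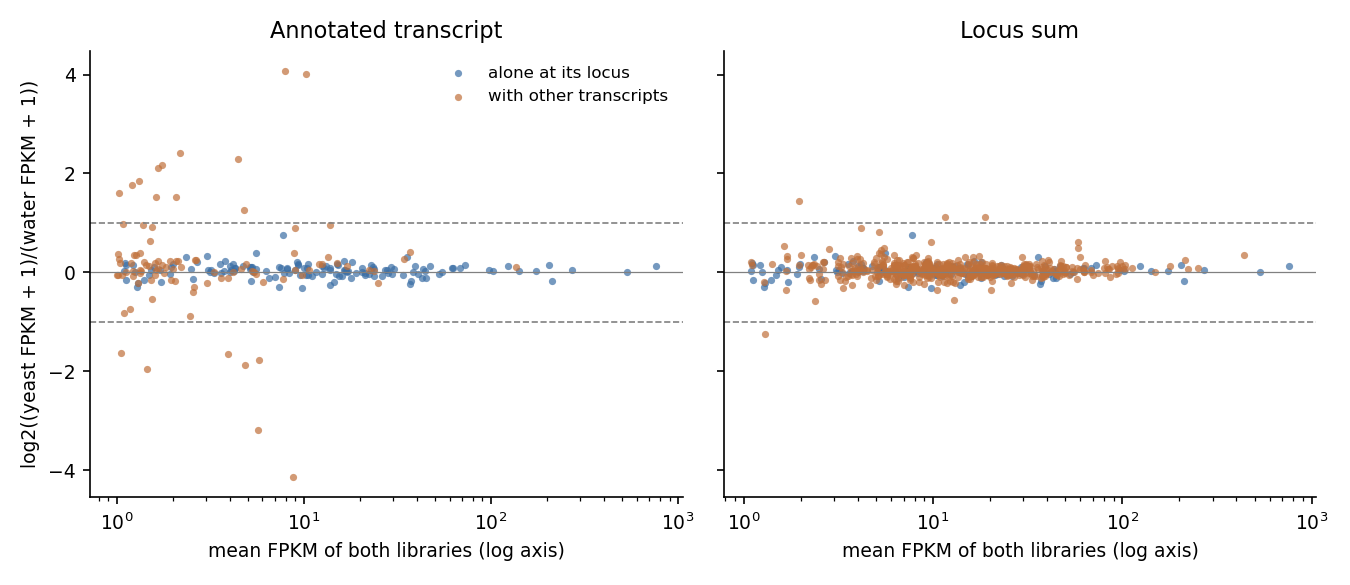
Log2 ratio of yeast over water FPKM (pseudocount 1) against mean FPKM (log axis) for genes with 20 or more exons, as annotated transcripts (left, 233 points) and as locus sums (right, 666 points); blue points are alone at their locus and dashed lines mark 2-fold. All 19 annotated transcripts past 2-fold share a locus with other transcripts, and 4 loci are past 2-fold on the right.

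The comparison of yeast with water, the question of the study, used log2 of (FPKM + 1) after yeast minus the same after water, a scale that compresses differences of weakly expressed genes. Past 2-fold means a difference of 1 or more in either direction on it. Of the 233 expressed annotated transcripts, 12 were past 2-fold higher and 7 lower (8.15%). Over all 13622 expressed annotated transcripts the shares were 1.64% higher and 1.56% lower, 3.2% together, and at 6 to 19 exons 3.55% were past 2-fold. All 19 stood at loci with several transcripts, where they were 19.8% of the 96 expressed many-exon transcripts, against 13.6% at 6 to 19 exons and 13.7% of all expressed annotated transcripts. None of the 137 alone at their locus was past 2-fold, against 0.691% of all annotated transcripts alone at theirs. These differences have no replicate check.

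At most of these 19 genes the locus differed far less than its annotated transcript. The locus log2 ratio was within 0.2 of 0 at 11 of the 19 and within 0.5 at 17, and 1 was past 2-fold. In 14 of 19 the other transcripts of the locus together differed in the direction opposite to the annotated one. A value of exactly 0 in either library was listed for 8 of them.

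The largest differences were of this kind. On chromosome 15 (30970099 to 30977897, plus), a 20-exon annotated transcript was listed at 0 after water and stood at 15.8 FPKM after yeast, while an assembled form of 21 exons went from 13.1 to 0.635 FPKM. The annotated form was 0% of the locus in the first library and 96.1% in the second, and the locus log2 ratio was 0.30. On chromosome 11 (29311562 to 29321725, minus), a 20-exon transcript was at 0.329 and 20.3 FPKM, and a 19-exon assembled form at 34.1 and 20.4 FPKM, with a locus log2 ratio of 0.23. Both loci were slightly higher after yeast, by far less than their annotated transcripts.

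Among lower transcripts, a 22-exon one on chromosome 4 (12364862 to 12374133, minus) was at 17.4 FPKM after water and 0.0396 FPKM after yeast. Its locus of 7 transcripts was at 196 and 233 FPKM, so the annotated form was 8.87% and 0.0170% of it. A 26-exon transcript on chromosome 6 (633819 to 643993, plus) was at 11.1 and 0.316 FPKM, against 5.31 and 16.4 FPKM for an assembled form of 29 exons, and the locus log2 ratio was 0.03. A near-complete exchange was seen again on chromosome 10 (5563233 to 5569157, minus), where a 20-exon transcript was at 8.21 and 1.51 FPKM and a 19-exon assembled form at 0.892 and 7.63 FPKM. On chromosome 3 (5068739 to 5078910, plus), the annotated and the assembled form both have 20 exons, and they were at 6.46 and 1.36 FPKM and at 0.711 and 5.53 FPKM. The locus log2 ratios of these last pairs were 0.01 and -0.05.

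Smaller exchanges made up much of the rest. On chromosome 4 (1732200 to 1740507, plus), a 25-exon annotated transcript was at 2.39 and 7.15 FPKM and an assembled form of the same exon number at 8.86 and 3.38 FPKM, so its share of the locus was 21.3% and 67.9%. On chromosome 11 (24677701 to 24684534, minus), a 20-exon transcript was at 0.831 and 8.02 FPKM in a locus at 49.5 and 48.3 FPKM. On chromosome 6 (5748842 to 5764656, minus), a 36-exon transcript was listed at 0 after water and at 2.05 FPKM after yeast, beside an assembled form of 52 exons at 17.9 and 18.1 FPKM. In the last case the assembled form hardly differed and the annotated one was added to it.

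**Figure D3:**
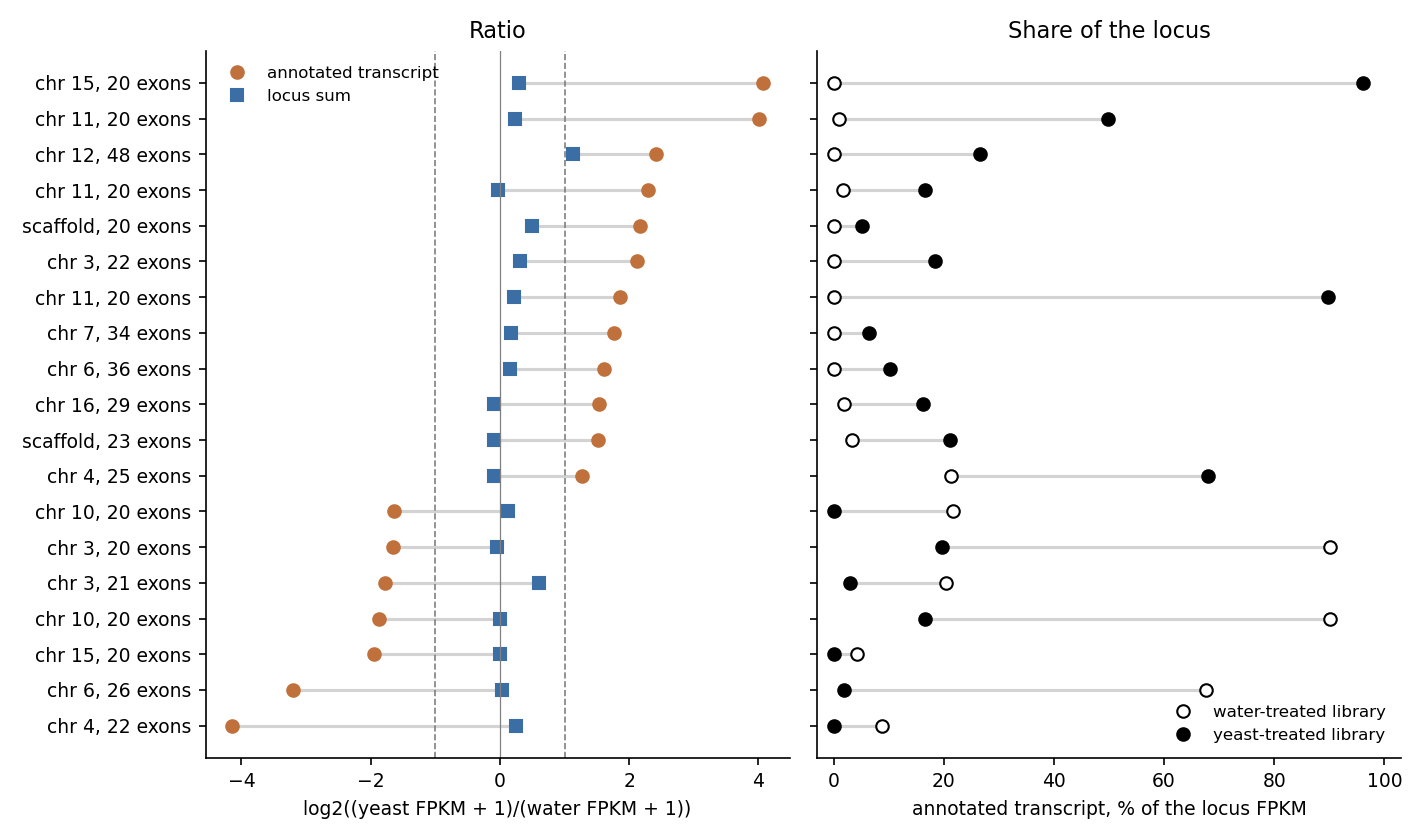
The 19 many-exon annotated transcripts past 2-fold, ordered by log2 ratio. Left, log2 ratio of the annotated transcript (circle) and of its locus sum (square), dashed lines at 2-fold; right, the annotated transcript as percent of locus FPKM in each library. Most squares lie close to 0 and 1 lies beyond a dashed line, while the share of the annotated form moves by up to 96.1 percentage points.

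Of the 126 annotated many-exon transcripts with a mean of at least 5 FPKM, 5 were past 2-fold. At 5 to 10 FPKM these were 4 of 39, against 24 of 886 at 6 to 19 exons. The counts were 1 of 36 against 14 of 870 at 10 to 20 FPKM, and 0 of 34 against 10 of 771 at 20 to 50. At 50 FPKM or more they were 0 of 17 against 1 of 522. The share over all annotated transcripts at 5 FPKM was not counted. Among the 126, and with 20 or more read pairs in both libraries, the highest log2 ratio belonged to Pbr008876. It lies on chromosome 9 (9778377 to 9788284, plus strand, 23 exons). Next was Pbr017155 (chromosome 2, 1637989 to 1657866, plus strand, 25 exons). Pbr008876 was at 9.06 FPKM after water and 18.5 FPKM after yeast, 2.04-fold higher (1.81 to 2.30). Pbr017155 was at 5.94 and 11.9 FPKM, 2.00-fold higher (1.82 to 2.20), but its locus was lower after yeast, at 22.7 and 17.6 FPKM. In the deposited FPKM per gene its log2 ratio was 0.0007, so the 2 gene-level values differ. Below them in the order came a 21-exon gene alone at its locus on chromosome 9 (11416121 to 11426132, plus), at 5.50 and 10.004 FPKM, 1.82-fold higher (1.62 to 2.04). The lowest were Pbr013416 (chromosome 3, 20388377 to 20408077, plus strand, 21 exons) and Pbr003936 (20 exons, on an unplaced scaffold). Pbr013416 was at 9.48 and 2.07 FPKM, 4.58-fold lower (3.96 to 5.32), while its locus of 5 transcripts was higher after yeast, at 46.3 and 70.9 FPKM. Pbr003936, alone at its locus, was at 10.9 and 8.51 FPKM, which is 1.28 times as much after water (1.09 to 1.51). Next came a 24-exon gene on chromosome 10 (11022941 to 11029493, minus), also alone, at 8.22 and 6.50 FPKM, a water-to-yeast ratio of 1.26 (1.12 to 1.42). For the 99 such transcripts alone at their locus, log2 ratios ran from -0.33 to 0.76.

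Taken by locus, 3 of 666 many-exon genes were past 2-fold higher and 1 lower (0.601%). The background over 19955 annotated transcripts expressed as loci was 0.316% higher and 0.281% lower, 0.596% together, so the share was near the background. These 4 were singled out after their values were seen, and they were resolved by transcript and by read pairs. The 26-exon gene on chromosome 2 (15461024 to 15468507, plus) was listed at 0 in both libraries as annotated, and a 21-exon assembled form was at 0.598 FPKM after water and 3.33 FPKM after yeast. Its read pairs, scaled to depth, were 5.56-fold higher (3.76 to 8.36). At the locus of Pbr008876, read pairs were 2.08-fold higher (1.85 to 2.35). The 48-exon gene on chromosome 12 (22106053 to 22124682, minus) had a locus at 6.92 and 16.3 FPKM, but read pairs differed by 1.01-fold (0.922 to 1.11). There, a single-exon annotated gene of 243 bases in the same locus went from 0.126 to 9.32 FPKM. The 40-exon gene on chromosome 11 (12779525 to 12794145, minus) had a locus at 2.23 and 0.362 FPKM, of which a 5-exon assembled form of 1003 bases made up 2.13 FPKM after water and was listed at 0 in the other. Its read pairs were 1.37-fold lower, with an interval of 2.18-fold lower to 1.16-fold higher. Read pairs of 2 of the 4 loci were therefore past 2-fold, that of Pbr008876 with an interval that takes in 2-fold. Folds of read pairs were not taken for the other loci.

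Values of exactly 0 call for the same caution. Of 381 many-exon transcripts with 20 or more read pairs in at least 1 library, 12 were listed at 0 after water and 8 after yeast (5.25% together). Among all annotated transcripts with that many pairs, 0.653% and 0.688% were so listed. These shares were not split by whether other transcripts share the locus, which holds for 64.4% of the 821 and 21.3% of all. At 19 of the 20 many-exon transcripts so listed, other transcripts shared the locus. The locus log2 ratios of these 19 lay between -0.20 and 1.13, the upper end being the 48-exon gene above. The exception, a 23-exon gene on chromosome 11 (12699930 to 12706188, minus), was listed at 0 after water and at 0.450 FPKM, about 24.4 read pairs, after yeast. Among the 19 was a 25-exon gene on chromosome 15 (5044160 to 5052724, plus), at 1.31 FPKM and listed at 0 as annotated, with a locus at 71.7 and 69.0 FPKM.

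Ratios of many-exon genes were slightly above 0 as a group. The median log2 ratio was 0.05 for the 233 expressed annotated transcripts and 0.04 for the 666 loci, against -0.02 and 0.001 for all annotated transcripts. At 439 of 666 loci (65.9%) the ratio was above 0, compared with 57.3% at 6 to 19 exons, 46.3% at 2 to 5 exons and 39.3% for single exons. The shift was not particular to 20 or more exons. At 15 to 19 exons 64.1% of loci were above 0 with a median of 0.04, and at 10 to 14 exons 61.8% with 0.04. At 6 to 9 exons the values were 53.2% and 0.01. Among genes of similar coding length, 2000 to 4000 bases, the median locus log2 ratio was -0.04 for single exons, 0.003 at 2 to 5 exons, 0.02 at 6 to 19 and 0.05 at 20 or more. In that length window the expressed share of loci was 39.9%, 47.8%, 69.4% and 82.2% in the same order. Both orders thus held at like length for locus sums. As annotated transcripts, 37.96%, 33.7%, 37.2% and 28.4% were expressed in that order, so many-exon genes were lowest. The share at loci with several transcripts rose alongside the locus shares, from 5.35% to 21.2%, 42.8% and 64.7%. Exon number was not separated from this rise. The shift of the median log2 ratio was far below the spread of single genes. With 1 library per treatment, that shift cannot be told apart from a difference between libraries.

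Single ratios of many-exon loci lay close to 0. Of the 666, 569 (85.4%, interval over loci 82.5 to 88.0%) were within 0.2 on the log2 scale, and 90% of loci lay between -0.18 and 0.29. At 6 to 19 exons 77.2% of loci were within 0.2, and over all annotated transcripts 70.2%. For annotated transcripts alone at their locus the figures were 86.9% of 137 at 20 or more exons and 77.0% of 3532 at 6 to 19.

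**Figure D4:**
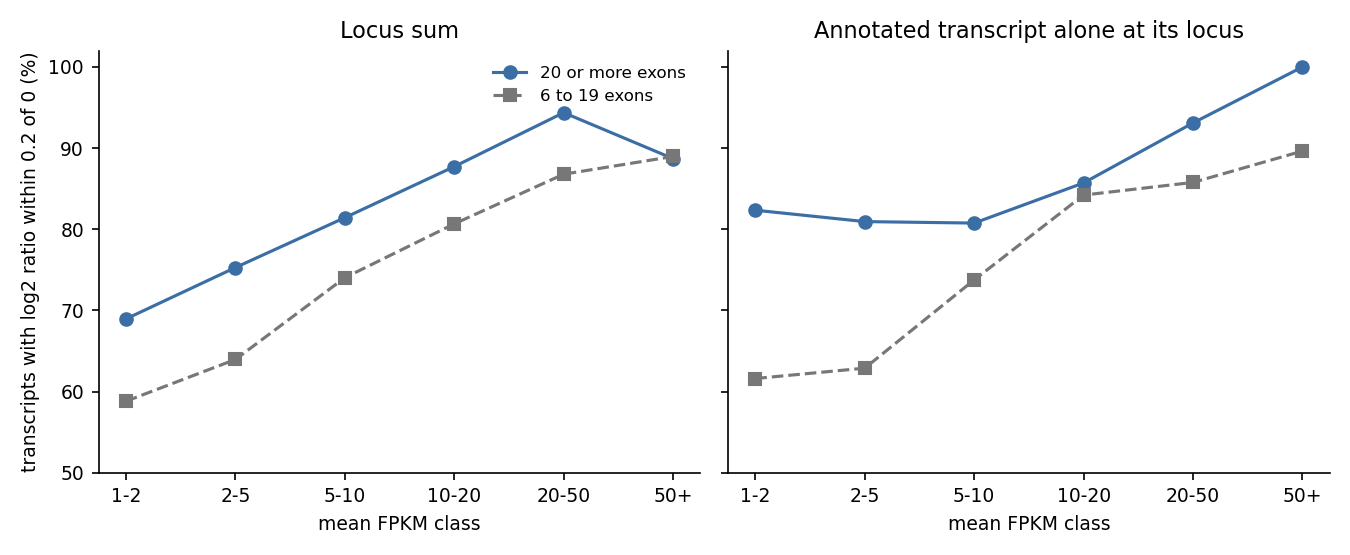
Percent of expressed genes whose log2 ratio is within 0.2 of 0, by class of mean FPKM, for 20 or more exons and for 6 to 19 exons. Left, locus sums, where many-exon genes are higher in 5 of 6 classes; right, annotated transcripts alone at their locus, where they are higher in all 6, the lowest and highest classes holding 17 and 16 many-exon transcripts.

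The narrowness was then compared at equal level, with the genes of 6 to 19 exons weighted to the same classes of mean FPKM. By locus, 85.4% of many-exon genes were within 0.2 against 78.2% of the weighted comparison, a difference of 7.27 percentage points, and the median absolute log2 ratio was 0.08 against 0.10. The gap was widest at 2 to 5 FPKM, where 75.3% of 85 many-exon loci and 64.0% of 1446 others were within 0.2. At 50 FPKM or more, 88.7% of 62 and 89.0% of 1052 were, and the order was reversed. For transcripts alone at their locus the difference was 9.74 points. On all expressed annotated transcripts it was 4.56 points, with 70.8% against 66.3%, and at the same time 8.15% were past 2-fold against 4.39%. The binomial 95% interval of the 4.56 points, over the many-exon transcripts, ran from -1.73 to 10.3 and took in 0.

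Many-exon genes hold more read pairs at the same FPKM, because they are longer. At 2 to 5 FPKM the median locus had 181 read pairs, against 99.1 at 6 to 19 exons, and at 10 to 20 FPKM 880 against 436. With classes of read pairs in place of FPKM, the difference by locus shrank to 2.06 points (85.4% against 83.4%, which is inside the interval of the many-exon loci), and for transcripts alone at their locus to 3.61 points, with median absolute log2 ratios of 0.0857 and 0.0863. On all expressed annotated transcripts it turned to -3.58 points. How much of the difference at equal FPKM comes from counting depth was not tested beyond this.

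Next to the threshold, loci were alike, while annotated transcripts differed more, with intervals that overlap. The 150 transcripts with exactly 20 exons were expressed in 31.3% of cases as annotated and in 75.3% as loci, with a median of 12.4 FPKM. The 189 with 19 exons, just outside, were expressed in 39.7% (32.7 to 47.0%) and 78.8%, with a median of 14.1 FPKM. Loci within 0.2 on the log2 scale made up 82.3% at 20 exons and 81.9% at 19. For annotated transcripts the shares were 57.4% (42.2 to 71.7%) and 72.0% (60.4 to 81.8%). Past 2-fold were 19.1% of 47 against 8% of 75. The ratio of the 90th to the 10th percentile of transcript FPKM was 98.7 at 20 exons and 33.3 at 19, and by locus 21.2 and 18.9.

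Many-exon genes lay on all 17 chromosomes and on 70 of the 847 unplaced scaffolds that carry annotated transcripts. On chromosomes there were 723 (88.1%, against 82.9% of all annotated transcripts), and the plus strand held 389 and the minus strand 432. Positions are as deposited, 1-based, in a genome build not given in the sources used here. Chromosome 15 had the most, 92 of 4091 annotated transcripts (2.25%). As a share of the annotated transcripts, chromosome 16 led with 2.70% (43 of 1592), followed by chromosome 1 with 2.60% and chromosome 9 with 2.53%. The lowest chromosome was 17 with 1.62% (37 of 2284), and unplaced scaffolds held 1.35% (98 of 7247). Along chromosomes, the first of 10 equal stretches held 13.7% of the many-exon genes and the last 12.03%, against 11.3% and 11.7% of all annotated transcripts, while the stretch numbered 6 held 7.88% against 7.94%.

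**Figure D5:**
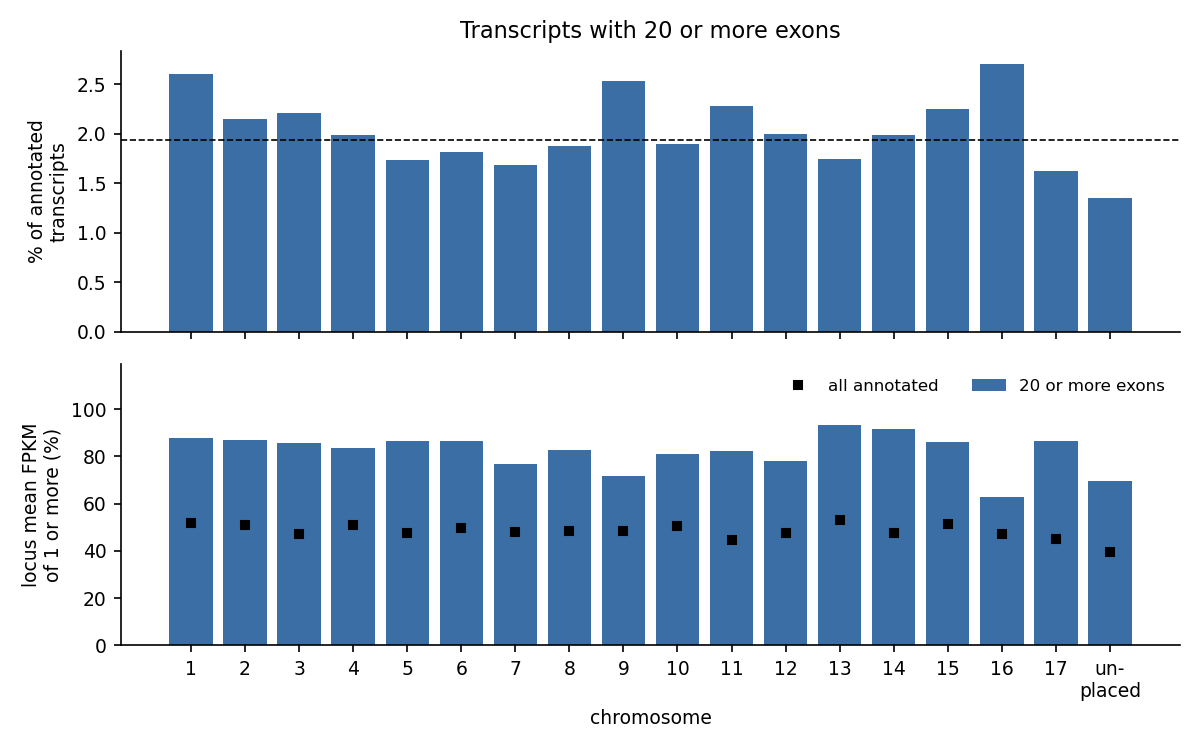
Top, transcripts with 20 or more exons as percent of all annotated transcripts on each chromosome and on unplaced scaffolds, with the value over the whole annotation as a dashed line. Bottom, percent of them expressed as a locus (bars) and the same for all annotated transcripts (squares); bars stand above squares everywhere, with chromosome 16 lowest at 62.8%.

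The share expressed as a locus varied by chromosome between 62.8% on chromosome 16 and 93.1% on chromosome 13, and was 69.4% on unplaced scaffolds. Chromosome 16 thus had both the highest density of many-exon genes and the lowest expressed share. Over all annotated transcripts the corresponding values were 47.3% and 53.2%, and 39.3% on scaffolds. Medians of the locus log2 ratio lay between -0.0006 on chromosome 13 and 0.10 on chromosome 9.

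Neighbouring many-exon genes were usually far apart, with a median gap of 293 kb on chromosomes, and none overlapped in span. In 38 pairs the gap was at most 10 kb, 23 of them on the same strand. Both loci were expressed in 18 of the 38 pairs and a single locus in 17, where 81.1% of all many-exon genes were expressed as loci. By annotated transcript, both were expressed in 1 pair and a single transcript in 8, where 28.4% of all were expressed. The pair with both, on chromosome 11, consists of 21-exon genes at 615035 to 620559 (plus) and 627568 to 634769 (minus), whose transcripts were at 44.4 and 41.2 FPKM and at 1.45 and 1.88 FPKM. On chromosome 16, 24-exon genes at 4135943 to 4143914 and 4145325 to 4155102, each in plus orientation, had loci at 55.6 and 55.6 FPKM and at 18.96 and 18.86 FPKM after water and after yeast. It belongs to the 8 pairs with a single expressed transcript. On chromosome 1, genes of 21 and 38 exons had loci at 9.22 and 9.52 FPKM and at 8.78 and 9.60 FPKM. On chromosome 3, neighbouring 20-exon genes had loci at 46.0 and 48.0 FPKM and at 53.6 and 52.3 FPKM. On chromosome 13, genes of 30 and 25 exons had loci at 7.83 and 8.45 FPKM and at 5.08 and 5.82 FPKM. The loci of the other 4 were at 28.1 and 27.9 against 39.5 and 37.0 FPKM (chromosome 2), 25.8 and 27.5 against 0.702 and 0.779 FPKM (chromosome 9), 5.28 and 4.98 against 17.2 and 18.3 FPKM, and 0 in both libraries against 4.11 and 4.45 FPKM, the last 2 pairs on scaffolds.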

How the data were processed

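RNA from wound tissue was sequenced in 2 libraries, 1 for each treatment. The authors deposited FPKM per gene and, per the file headers, tables of FPKM and mean coverage per base for 57919 transcripts. The submitters' processing notes list HISAT2 and HTSeq (0.6.1) without their roles. Which program wrote the tables, whether strand was used and the annotation release were not given in the sources used here. Members were annotated transcripts with at least 20 exons; they, the classes and the rules for described genes were chosen with earlier results of these data known. Described genes are those with the most exons, highest FPKM, most extreme ratios at 5 FPKM or more, a 0 in a single library, extreme lengths and close neighbours, with at most 4 identifiers. Others were described outside these rules, among them transcripts past 2-fold with a mean under 5 FPKM, loci past 2-fold and twins of identical structure. Fixed product lists could not be applied. Locus sums add FPKM over transcripts with the same locus identifier. Read pairs were estimated as coverage times length over 300 bases, the commonest covered total of weak transcripts, and fold intervals are exact (Clopper-Pearson), conditional on their sum. Percentile and share intervals are binomial over transcripts. Functions were tested on simulated data. Python 3.11.15, numpy 2.4.6, pandas 2.3.3 and scipy 1.17.1 were used. Alternatives covered pseudocounts, filters, TPM, gene table, locus sums, exon thresholds and matching.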

Additional observations from a re-analysis of the deposited data

How the results depend on the processing

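The expressed share of 28.4% became 81.1% by locus sum, 80.3% in the gene table and 46.9% for transcripts alone at their locus; it was 36.5% at a minimum of 0.5 FPKM, 15.3% at 5 FPKM and 32.6% for 15 or more exons. The range of 30.8 times became 13.95 by locus sum, 16.0 in the gene table, 11.03 at 5 FPKM and 20.1 for 25 or more exons. Of the 19 transcripts past 2-fold, the count became 4 by locus sum, 2 in the gene table, 0 at single-transcript loci, 5 at 5 FPKM, 7 with a pseudocount of 5, 6 for 25 or more exons and 43 for 15 or more. The share within 0.2, 70.8%, was 85.4% by locus sum, 88.8% in the gene table, 86.9% at single-transcript loci, 81.7% at 5 FPKM, 82.1% with no filter, 82.8% with a pseudocount of 5 and 62.7% with 0.1. The median log2 ratio was 0 with no filter, and positive under every other alternative run. The difference of 4.56 points from 6 to 19 exons reversed to -1.92 with a pseudocount of 5 and to -3.58 with read-pair classes, where the median absolute log2 ratio differed by 0.0084 in place of -0.01. The share on unplaced scaffolds, 11.9%, was 8.58% among expressed transcripts. The remaining 62 recomputed values stayed within their binomial interval or, for counts, within 1.5 times.

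Of the 43 described genes that were recomputed, 17 changed direction in at least 1 recomputation. There were 16 such values in the gene table, 17 by locus sum and 1 after centring on the median of all annotated transcripts. Past 2-fold were 8 of these genes. In the gene table and by locus sum, Pbr013416 became 0.16 and 0.60, the chromosome 4 gene of 22 exons 0.18 and 0.25, the chromosome 6 gene of 26 exons 0.15 and 0.027, the chromosome 10 gene of 20 exons at 11188619 0.15 and 0.13, and the chromosome 1 gene at 4744843 0.15 and 0.10. Those at 0 after water became -0.23 and -0.15 (chromosome 12, 1551572), -0.046 and -0.037 (chromosome 7, 1666943) and -0.21 and -0.20 (a scaffold). Of the other 9, Pbr017155 was at 0.0007 in the gene table and turned by locus sum to -0.35. Genes at 0 after yeast turned to 0.19 and 0.15 (chromosome 1, 4636317), 0.21 and 0.18 (chromosome 5, 15884670), 0.10 and 0.10 (a scaffold) and 0.05 and 0.05 (chromosome 9, 3320507). The rest lay within 0.1 of 0 as annotated, in the gene table and by locus sum. Other described genes were not among the 43, so these counts leave them out. By locus sum, -1.87 became 0.006 on chromosome 10 (5563233) and 1.26 became -0.088 on chromosome 4 (1732200). On chromosome 11 (24677701), 2.30 became -0.034, while on chromosome 3 (5068739) -1.66 became -0.05 and kept its direction. Matchings that combine locus sums or single-transcript loci with read-pair classes, and the length window, were added after the data were seen. No paired analysis was possible because there is just 1 library per treatment, so none could be left out. Depth limits weak transcripts: 3 read pairs equal about 0.05 FPKM at the median length.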

Other observations

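These sets were looked for after the values were seen. Some many-exon genes had a twin of identical structure elsewhere in the assembly. Matching on exon number, coding length and span gave 16 sets with 33 genes (4.02% of the 821), 15 of them pairs and 1 a trio, compared with 6.42% of the transcripts with 6 to 19 exons. Of the 15 pairs, 11 lay on the same chromosome or scaffold, 10 of these on opposite strands, with starts 22.8 to 411 kb apart. In 10 pairs both loci were expressed, and their mean FPKM differed by a median of 1.09-fold, by less than 1.3-fold in 9. In 5 pairs neither was. On chromosome 6, 20-exon genes at 13592745 to 13598367 (plus strand) and 13762581 to 13768203 (minus strand) had loci at 16.3 and 15.3 FPKM and at 16.0 and 15.2 FPKM after water and after yeast. On chromosome 14, 33-exon genes at 10095940 to 10110753 (plus strand) and 10197128 to 10211941 (minus strand) were at 5.16 and 5.75 FPKM and at 4.96 and 5.44 FPKM. The level ratio was highest, 2.60, between 20-exon genes on chromosome 13 (14261905 to 14267131), at 27.3 and 28.3 FPKM, and chromosome 15 (13432801 to 13438027), at 68.4 and 76.3 FPKM. Values of single copies are uncertain, since how reads were divided between copies was not tested and their sequences were not examined. On chromosome 1, 22-exon twins at 4636317 to 4643708 and 4744843 to 4752234 were at 0.886 and 1.31 FPKM after water, and both annotated forms stood at 0 after yeast, while their loci were at 5.84 and 6.57 FPKM and at 7.39 and 7.9997 FPKM.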
